A study of Homo sapiens with 12 samples.

Results

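Single-exon peaks at the 5′ ends of genes were examined in a peak list from immunoprecipitation of polyadenylated RNA with an anti-m1G antibody, m1G being 1-methylguanosine. The RNA came from PANC-1, a human cell line established from a carcinoma of the pancreatic duct. A member was a peak with 1 exon block whose midpoint lay in the span of exactly 1 protein-coding gene of at least 5000 bases, and in the first 10% of that span in the direction of the peak's strand. Of 9585 peaks in the deposited MetDiff list, 6382 had a single block. Of these, 184 had their midpoint in no protein-coding gene, 448 in several, and 501 in a span under 5000 bases, which left 5249 peaks with a position. The members were 1128 of these 5249 (21.5%) and lay in 989 genes, and the other 4121 single-exon peaks served for comparison.

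The 12 libraries of experiment 2 formed 4 groups of 3: RNA precipitated with the anti-m1G antibody from cells transfected with siRNA against TRMT5, the same precipitation from control cells, input RNA of TRMT5-depleted cells, and input RNA of control cells. Depletion lasted 4 days, and the RNA was fragmented to an average of 100 to 200 nucleotides before precipitation. The experiment asked which mRNAs may carry m1G. Both peak lists belong to the whole series and hold no value per library, so no difference between TRMT5-depleted and control cells could be measured. Library depth is unknown, and neither the knockdown of TRMT5 nor the identity of the cells could be checked from the lists. Precipitation with a GFP antibody, which the protocol also mentions, was not analysed here. Genes are named by the RefSeq span that holds the midpoint, and the Ensembl IDs of the peak list were not paired with these names.

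An mRNA made by RNA polymerase II starts at the promoter and receives a 7-methylguanosine cap on its first nucleotide, which cap-binding proteins hold in the nucleus and at the start of translation. The 5′ part of the transcript holds the untranslated leader that ribosomes scan and often the first codons. m1G itself is known from tRNA, where TRMT5 places it next to the anticodon. First exons of human genes lie mostly in CpG-rich DNA, so the start of an mRNA is often rich in guanine and cytosine.

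Where the sequence was at hand, the blocks of many members lay across or just after the listed start of the gene. A promoter on the peak's strand was listed in RefSeq (GRCh38.p14) for 903 members in 799 genes. In 732 of these (81.1%) the midpoint lay within 500 bases after a listed start. Of the 732, 68 blocks reached upstream of that start, 209 began less than 30 bases after it (the 68 included), 248 began 30 to 99 bases after it, and 275 began at 100 bases or more. The 5 members that reached farthest upstream of a listed start with their midpoint after it are shown first, because their blocks cross the listed start. Each line gives 120 bases before the start and the first 30 bases from it, 5′ to 3′, with the bases inside the peak in capitals.
CYTH2 (chr19:48469249-48469398, plus strand): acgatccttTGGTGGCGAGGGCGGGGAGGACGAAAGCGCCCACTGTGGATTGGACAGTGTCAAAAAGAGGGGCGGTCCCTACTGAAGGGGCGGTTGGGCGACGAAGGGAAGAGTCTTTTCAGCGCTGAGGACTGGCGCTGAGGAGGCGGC
TSPAN17 (chr5:176647364-176647513, plus strand): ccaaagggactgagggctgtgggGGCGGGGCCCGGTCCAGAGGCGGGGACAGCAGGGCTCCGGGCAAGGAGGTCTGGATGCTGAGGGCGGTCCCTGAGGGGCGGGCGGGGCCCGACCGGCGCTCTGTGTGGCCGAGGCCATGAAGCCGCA
PLK1 (chr16:23678769-23678918, plus strand): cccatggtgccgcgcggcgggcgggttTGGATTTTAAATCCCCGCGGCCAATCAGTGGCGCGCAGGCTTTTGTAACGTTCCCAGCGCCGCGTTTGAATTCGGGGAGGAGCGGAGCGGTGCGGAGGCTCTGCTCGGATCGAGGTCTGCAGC
COMMD7 (chr20:32743438-32743587, minus strand): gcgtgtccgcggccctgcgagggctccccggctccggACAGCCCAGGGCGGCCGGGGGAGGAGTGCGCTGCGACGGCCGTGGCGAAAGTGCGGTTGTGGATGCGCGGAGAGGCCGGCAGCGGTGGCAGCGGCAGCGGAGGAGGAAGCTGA
ASCC1 (chr10:72215927-72216076, minus strand): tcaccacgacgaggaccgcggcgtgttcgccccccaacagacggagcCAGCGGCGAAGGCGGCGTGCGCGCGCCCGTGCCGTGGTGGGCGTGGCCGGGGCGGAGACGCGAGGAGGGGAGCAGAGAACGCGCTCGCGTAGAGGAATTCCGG
The peak of CYTH2, an exchange factor for ARF GTPases, began 111 bases before the start and had a fold of 5.60. The peaks of the tetraspanin TSPAN17 and of the mitotic kinase PLK1 began 97 and 93 bases before it, with folds of 9.50 and 6.15. That of COMMD7 began 83 bases before it (fold 5.77) and that of ASCC1, a subunit of the ASCC complex, 73 bases before it (fold 2.14). The start used for ASCC1 lies inside the span, and the midpoint of that peak was 1180 bases from the outer end. Other annotated starts of these genes, in the gene set used for peak calling, were not analysed here.

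The next 6 sequences are those of the members with the highest fold among blocks that began less than 30 bases after a listed start. FSCN1, the member with the highest fold, is not in that promoter table. Each line gives 60 bases before the start and 30 from it, with the peak in capitals.
PEMT (chr17:17591679-17591768, minus strand): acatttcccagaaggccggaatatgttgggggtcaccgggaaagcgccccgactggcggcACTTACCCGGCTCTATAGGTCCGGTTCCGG
B4GALNT4 (chr11:369439-369528, plus strand): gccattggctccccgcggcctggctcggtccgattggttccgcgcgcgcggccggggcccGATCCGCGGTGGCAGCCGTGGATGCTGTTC
PCYT2 (chr17:81911370-81911459, minus strand): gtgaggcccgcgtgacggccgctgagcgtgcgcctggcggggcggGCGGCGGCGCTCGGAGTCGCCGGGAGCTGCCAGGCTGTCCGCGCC
DNAJB11 (chr3:186570660-186570749, plus strand): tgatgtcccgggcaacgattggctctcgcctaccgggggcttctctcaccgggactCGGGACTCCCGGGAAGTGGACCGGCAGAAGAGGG
CDC34 (chr19:531700-531789, plus strand): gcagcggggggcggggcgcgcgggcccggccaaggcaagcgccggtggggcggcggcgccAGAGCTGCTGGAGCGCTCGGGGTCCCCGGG
CYB5A (chr18:74291934-74292023, minus strand): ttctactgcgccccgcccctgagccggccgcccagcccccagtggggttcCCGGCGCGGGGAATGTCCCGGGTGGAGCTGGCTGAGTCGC
In these 6 members the capitals began between 15 bases before the start (PCYT2) and the start itself (PEMT, B4GALNT4 and CDC34). The start used for PEMT lies inside the span, whose outer end is 434 bases before the peak.

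Peaks lay at the 5′ end far more densely than in the interior of spans. The first 10% of the span, which defined the members, held 1128 peaks, and the last 10% held 1716. The steps of 10% between held 187 to 589 each. This is a description of position along the gene with its introns. How the peaks spread over spliced mRNA was not analysed here, since no exon annotation was used. A further 532 of 2895 peaks with several exon blocks had their edge nearer to the start in the first 10% of a span, and these are not members.

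The deposited fold, read as precipitated over input RNA from its place in the table, was higher in the first 10% of spans than in the rest. Members had a median fold of 5.73 (quartiles 3.67 and 9.0), against 4.31 (2.88 and 6.65) in the other single-exon peaks, a difference of 1.42. With 1 peak per gene, the one with the highest fold, the medians were 6.09 in members and 5.40 in the others, a difference of 0.69. The order-statistic 95% intervals of the medians were 5.44 to 6.0 for members and 4.19 to 4.42 for the others, and they treat peaks as independent, which peaks of the same libraries are not. Each of the other steps of 10% had a median between 4.09 and 4.525, with no slope along the span. A fold of at least 10 was reached by 230 members (20.4%), against 438 of the other peaks (10.6%). Over all 5249 peaks the share was 12.7%, and in the other steps of 10% it ran from 6.86% to 17.6%. A fold of at least 20 was reached by 35 members (3.10%) and 50 others (1.21%), with 1.62% over all. At the low end, 43 members (3.81%) and 323 others (7.84%) had a fold under 2. No test was made, because peaks of the same libraries are not replicates.

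The false discovery rate (FDR) of the authors separated members from other peaks less than the fold did. It was under 0.01 in 1051 members (93.2%), against 3752 others (91.0%), with 91.5% over all. It was under 1e-06 in 137 members (12.1%), against 460 others (11.2%), with 11.4% over all, which is near that background. As a description over the 1128 members, which share libraries, the rank correlation (Spearman) of fold with −log10 FDR was 0.150. The FDR was not always a value of the single peak. Of 109 Ensembl IDs with 2 or more members, 52 had 1 identical FDR for all of them.

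**Figure D1:**
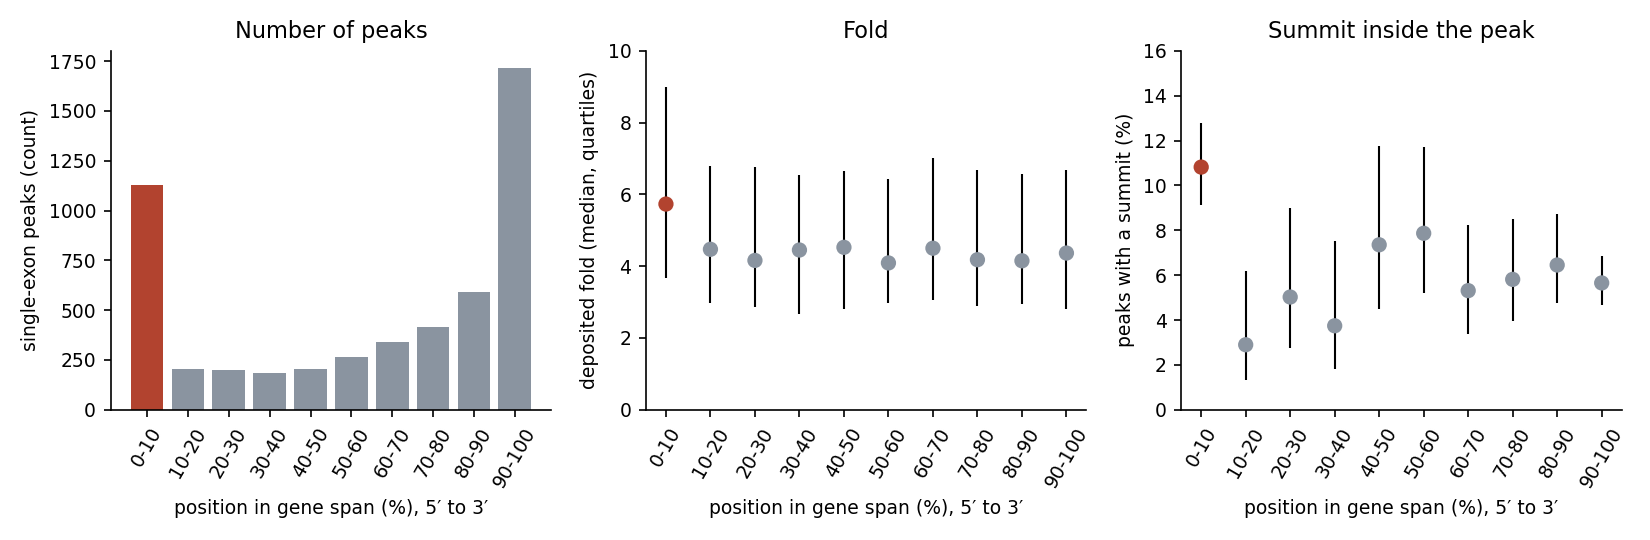
Single-exon peaks in steps of 10% of the gene span from 5′ to 3′: count, deposited fold (points are medians, bars are quartiles) and percent with a MACS2 summit inside (bars are 95% Wilson intervals, counting error only). The first step (red, the members) held 1128 peaks with a median fold of 5.73 and 10.8% with a summit; in each of the other steps the median lay between 4.09 and 4.525 and the share with a summit between 2.90% and 7.87%.

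A second list of the series gives MACS2 summits, positions of 1 base with a −log10 q value. A summit lay inside 122 members (10.8%, 95% Wilson interval 9.13 to 12.8), against 236 other peaks (5.73%, 5.06 to 6.48), with 6.82% over all. The same libraries may underlie both lists. A wide block has more room for a summit, and members were somewhat wider: 23.1% were over 160 bases, against 16.9% of the others. Within blocks of up to 110 bases, 2.61% of members (95% Wilson interval 1.62 to 4.20) and 1.54% of the others (1.13 to 2.10) held a summit. The difference was 1.07 percentage points, and the intervals overlapped. All Wilson intervals here cover counting error only and treat peaks as independent, which peaks of the same libraries are not. Above 110 and up to 160 bases the shares were 9.02% in members (6.09 to 13.2) and 4.14% in the others (3.02 to 5.65). Above 160 bases they were 31.8% in members (26.4 to 37.7) and 23.0% in the others (20.02 to 26.3). Median folds within the same classes were 5.245, 5.60 and 6.76 in members, against 3.99, 4.54 and 5.50 in the others.

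None of the 10 strongest of these summits lay in the 20 members with the highest fold. SLC7A5, the light chain of the large neutral amino acid transporter, had the strongest summit in a member, with −log10 q of 73.6 in a peak of fold 4.86 that began 50 bases after the start (chromosome 16, 87869259 to 87869457). IGFBP7, a secreted binding protein of insulin-like growth factors, had 71.4 (fold 5.64), and the lysosomal membrane protein LAPTM4B had 63.3 (fold 7.80). EIF3B, a subunit of initiation factor 3, had 61.4 (fold 14.7) and the transmembrane protein CRIM1 58.0 (fold 11.9). The clathrin assembly protein PICALM followed with 50.3, the RNA-binding protein HNRNPU with 49, the calcium pump ATP2A2 with 47.6, the protease inhibitor SPINT2 with 47.2 and the disulfide isomerase P4HB with 46.7. The folds of these last 5 lay between 3.81 (ATP2A2) and 9.39 (PICALM). The rank correlation of fold with the summit value was 0.0119 over these 122 members. Their strongest summits lay at a median of 157.5 bases from the start of the span (quartiles 65.25 and 400.25).

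Most members lay close to the start of the span, and the rule that chose them sets part of this closeness. In a span of 5000 bases, the first 10% is itself 500 bases long. The median span of members was 33215.5 bases. The midpoint was at a median of 200 bases from the start of the span (quartiles 105.375 and 546.75), or 0.703% of its length, and 825 members (73.1%) lay within 500 bases. At the other end, 21 members lay 5000 or more bases away, up to 60609.5 bases. The fold was mostly higher nearer to the start. The median was 6.54 in 52 members under 50 bases, 6.33 in 195 from 50 to under 100 bases, 5.905 in 314 from 100 to under 200 and 5.565 in 264 from 200 to under 500. It was 5.265 in 162 members from 500 to under 1000 bases, 5.38 in 120 from 1000 to under 5000 and 4.40 in the 21 beyond. The quartiles of neighbouring classes overlapped widely, and the rank correlation of fold with distance was −0.118 over the 1128 members. A summit was most frequent from 200 to under 500 bases (40 of 264, 15.2%) and from 100 to under 200 (39 of 314, 12.4%), and 3 of the 52 nearest members held one (5.77%). The widest block measured 698, 399 and 250 bases in these classes, in the same order. Summit shares by distance were not compared at equal width.

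**Figure D2:**
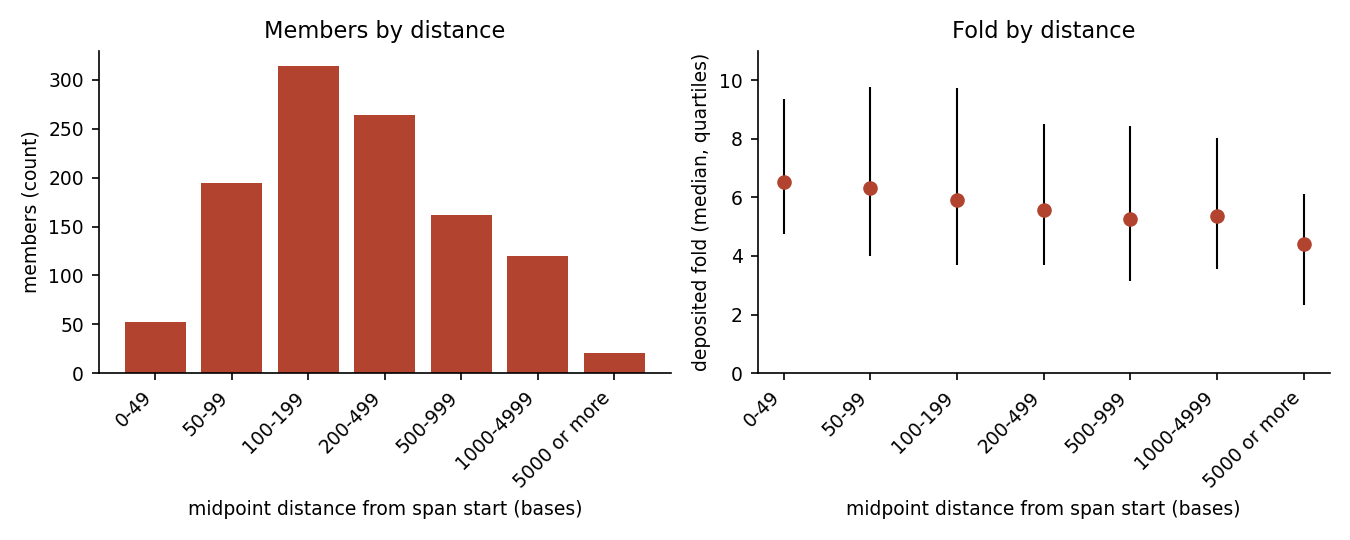
Number of members and their deposited fold (points are medians, bars are quartiles) by the distance of the midpoint from the start of the gene span, in bases. The class from 100 to under 200 bases was the fullest with 314 members, and the median fold was 6.54 under 50 bases and 4.40 at 5000 bases or more.

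Many edges fell on steps of 50 bases. In 367 members (32.5%) the edge nearer to the start lay within 1 base of a multiple of 50 bases from the start of the span, with 63 exactly at 0 and 100 exactly at 50. The other single-exon peaks were not counted in this way, so whether members differ from them here is not known. The median width was 101 bases. A peak of this width does not locate a single modified base.

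Members held 10 of the 20 highest folds and 37 of the 100 highest among all 5249 single-exon peaks. They made up 41.2% of the peaks with a fold of at least 20, beside 21.5% of all 5249. Of the 20 members with the highest fold, 14 had a block that began at most 50 bases after the start of the span or upstream of it, against 401 of all 1128 (35.5%). This limit was not planned, and it takes in blocks that began exactly at 50 bases. These were 100 of the 401, and among the 14 those of TYK2, GAREM2, EEIG1, KIF5B, SLC35E1 and TXNDC5. FSCN1, the gene of the actin-bundling protein fascin, led with 52.3 in a peak that began at the first base of the span (chromosome 7, 5592816 to 5592916, FDR 2.57e-07). A second FSCN1 member, which began 250 bases into the span, had a fold of 6.76. HTRA1, a secreted serine protease, had 50.7 in a peak that began 191 bases into its span (FDR 6.03e-05). TYK2, a Janus kinase, had 48.5 and GAREM2, an adaptor of growth factor signalling, 48.3, both in peaks that began 50 bases after the start. The adenylyl cyclase ADCY3 had 44.0 and the epoxide hydrolase EPHX1 40.2, further inside at 398 and 165 bases.

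The next 14 members had folds from 38.4 to 25.5. MRPL13, of the large mitochondrial ribosomal subunit, had 38.4 and the kinase MAP3K6 36.2 (FDR 2.95e-09). EEIG1 had 32.6. PEMT, which methylates phosphatidylethanolamine, had 30.3 (FDR 9.55e-08), and PCYT2, which makes CDP-ethanolamine for the same lipid, had 29.3 (FDR 3.80e-09). The glycosyltransferase B4GALNT4 had 29.9 with an FDR of 0.0102. DNAJB11, a J-domain cochaperone of the endoplasmic reticulum, had 28.0 and TXNDC5, a disulfide isomerase there, 26.1. The kinesin heavy chain KIF5B had 27.6, the ubiquitin-conjugating enzyme CDC34 27.5, the solute carrier SLC35E1 27.0, the ubiquitin ligase TRIM8 26.9 and cytochrome b5 (CYB5A) 26.7, the last with the lowest FDR of the 20 (1.26e-11). The junction protein AFDN had 25.5. A summit lay inside 4 of the 20, those of B4GALNT4, CDC34 (−log10 q of 33.4), TXNDC5 (28.6) and AFDN (25.2). Among the lowest folds of members were 1.21 in the span of ITPR3, on the strand opposite to that gene, and 1.25 in FYTTD1, an mRNA export adaptor.

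**Figure D3:**
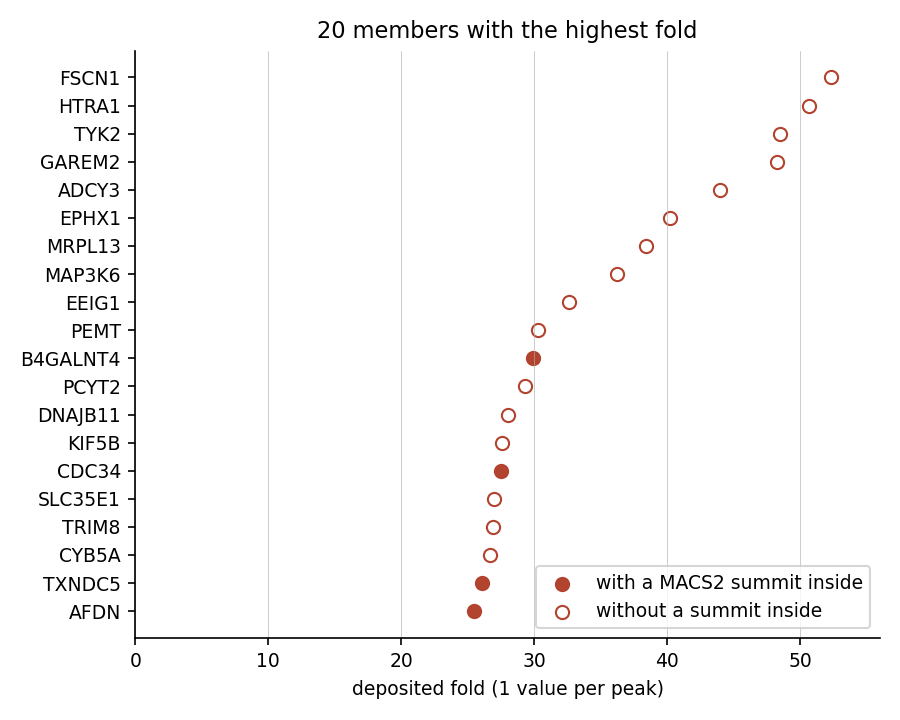
The 20 members with the highest deposited fold, with 1 value per peak (horizontal axis, linear from 0). Filled points mark the 4 peaks with a MACS2 summit inside; FSCN1 led with 52.3 and AFDN closed with 25.5.

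Genes with peaks at both ends allow the fold to be set side by side within a gene. Under the same Ensembl ID, 220 genes had a member and a single-exon peak in the last 10% of the span, and the highest fold of each end was used. It was higher at the 5′ end in 135 genes (61.4%) and at the 3′ end in 85. The median was 6.13 at the 5′ end and 4.76 at the 3′ end, and the median log2 ratio was 0.36 (5′ over 3′). The largest ratios in favour of the 5′ end were those of FSCN1 (52.3 against 2.30) and TYK2 (48.5 against 3.31), followed by UBAC1 (16.8 against 1.88), PPP1R37 (20.1 against 2.37) and the mitochondrial carrier SLC25A39 (13 against 1.69). In favour of the 3′ end stood the survival factor BCL2L1 (1.68 against 13.1), the transcription factor STAT3 (1.69 against 10.2), the kinase AKT2 (4.04 against 24.1), TCF25 (1.66 against 9.09) and WIPI2 (3.0 against 16.2). These 10 genes were chosen after their values were seen. A summit lay inside the 5′ peak alone in 27 of the 220 genes, inside the 3′ peak alone in 14, at both ends in 2 and at neither in 177. Over all 989 member genes, 431 also had a single-exon peak outside the first 10% and 558 had none.

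**Figure D4:**
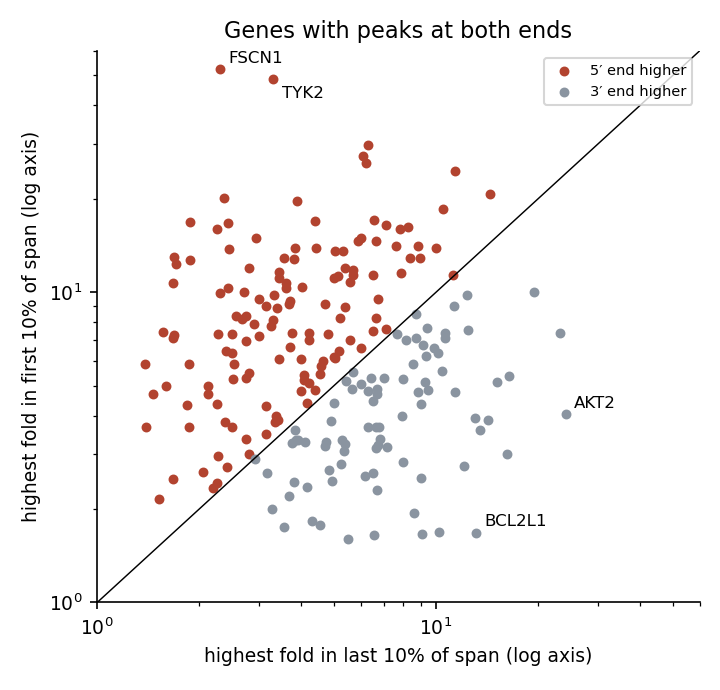
Highest deposited fold in the first 10% of the span (vertical, log axis) against the highest in the last 10% (horizontal, log axis) for 220 genes with single-exon peaks at both ends; the line marks equal values. Red points above the line are the 135 genes with the higher fold at the 5′ end and grey points below it the 85 with the higher fold at the 3′ end.

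Most genes had a single member. It was 1 in 873 genes, 2 in 98 and 3 or more in 18, with at most 6. The 6 members of PCDH7, a protocadherin, lay between 96 and 2771 bases from the start with folds from 1.74 to 6.81. CELSR1, an atypical cadherin, had 4, with folds of 12.9, 5.67, 2.23 and 3.0 from 649 to 2816.5 bases. The span of MTMR3 also held 4, all on the strand opposite to the gene. ARID1A, a subunit of the SWI/SNF chromatin remodeller, had folds of 1.88, 2.44 and 15 at 617, 817 and 1267 bases, so that neighbouring peaks of the span differed several-fold. The kinase AKT1 had 12.3 at 47 bases and 4.58 and 5.17 further inside. In STX10, a syntaxin of the Golgi, the middle of 3 peaks was the highest (5.57, 18.1 and 3.19). Folds of the other genes with 3 members (ARHGEF12, BCR, CCDC88A, CPD, HNRNPUL2, ITPKB, MAP3K10, PCYT2, PUS1, RAB11FIP3, RBCK1 and ZNF668) lay between 1.57 in RBCK1 and 29.3 in PCYT2. All 3 peaks in the span of ZNF668, and all but the highest in that of PCYT2, ran on the opposite strand. In HNRNPUL2, 2 of the peaks overlapped each other under different Ensembl IDs, and 20 members in all overlapped another member.

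TRMT5 and NES, the genes in the study's title, had their highest single-exon peak outside the 5′ end. TRMT5 had 3 MetDiff peaks and 1 of them had a single block, at 19.3% of the span (chromosome 14, 60979567 to 60979865, fold 7.11), so it had no member. NES, the gene of nestin, an intermediate filament protein, had 2 members among its 7 single-exon peaks, with folds of 2.82 at 2.01% of the span (chromosome 1, 156677158 to 156677308, FDR 0.00117) and 5.12 at 4.6% (156676960 to 156677059, FDR 5.75e-05). Its highest single-exon fold, 15.1, stood at 93.7% of the span.

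Members occurred in 11 of 12 gene lists. Over all 16842 protein-coding genes with a span of at least 5000 bases, 989 had a member (5.87%), but that background may include genes the cells do not express. Of the 2885 genes with any positioned single-exon peak, 34.3% had one at the 5′ end, which is the nearer background. Of 20 kinases and signalling genes, 11 had a member and 12 any such peak. Besides TYK2 and AKT1, ROCK2 and ROCK1, the kinases of actomyosin contraction, had folds of 12.3 and 10.8. Of 21 chromatin genes, 7 had a member and 13 any peak, led by ARID1A, by KMT2B, a histone H3 methyltransferase, with 9.67, and by CHD4, a remodelling helicase, with 9.40, and with HDAC1, a histone deacetylase, at 6.62.

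Genes of the secretory pathway had members in 5 of 22, out of 10 with any peak. The chaperone HSP90B1 had a fold of 10.4, and the disulfide isomerases PDIA3, P4HB and PDIA4 had 9.0, 6.93 and 3.30. Splicing factors had members in 5 of 26 (12 with any peak), with SRRM2 at 9.08, HNRNPD at 7.64, HNRNPU at 7.18 and SRSF7 at 5.00. Translation initiation factors had members in 4 of 30 (10 with any peak): EIF3B, EIF1AX with 6.58, EIF4G2 with 5.33 and EIF4A3 with 2.44. Among factors that form, bind or remove the cap, 3 of 18 had a member (7 with any peak). They were NCBP2, a subunit of the nuclear cap-binding complex, with 6.50, NCBP3 with 6.0 and the capping enzyme RNGTT with 2.79.

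The counts of the lists are small. Over all genes with a peak, 34.3% had a member. In the lists with any such peak, that share ran from 12.5% (cytoskeleton) to 91.7% (kinases and signalling). Of 21 cytoskeletal genes, 16 had a single-exon peak and 2 of them a member, FSCN1 and NES. Membrane receptors and adhesion genes had members in 4 of 24 (14 with any peak), with NOTCH2 at 8.96 and the integrins ITGB1, ITGA6 and ITGA3 at 6.82, 4.10 and 3.22. Matrix genes had 2 of 21 (9 with any peak), perlecan (HSPG2) with 16.2 and the laminin LAMC1 with 12.9. The basal transcription machinery had 2 of 27 (10 with any peak), POLR2E with 2.65 and TAF2 with 2.30, and tRNA modification enzymes had 1 of 22 (5 with any peak), the pseudouridine synthase PUS1 with 4.14. Markers of acinar, islet and duct cells had 0 of 9 and no other single-exon peak. No list was tested against another.

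The base make-up of the starts next to members differed from that of other listed promoters. Over 692 promoters with a member midpoint within 500 bases, guanine made up 40.1% of the first 50 bases after the start, against 36.6% over 2488 promoters of genes whose single-exon peaks all lay outside the first 10%, and 33.5% over all 22182 listed promoters of protein-coding genes. The order was the same for CpG, with 10.7 per 100 bases of the window of 250 bases before and 50 after the start, against 8.82 and 6.85. The first base was guanine in 47.4% of these promoters, against 41.9% and 36.2%. Cytosine in the first 50 bases differed less, at 31.4%, 31.0% and 29.3%. The 732 members within 500 bases after a listed start were split by guanine in the first 50 bases after that start. From low to high guanine, the median fold was 5.485, 6.17 and 6.0 in 3 classes of 244 members each. The rank correlation of fold with this guanine share was 0.0951 over the 732 members. A fold of at least 10 was reached by 19.7%, 20.1% and 26.2% of the same classes. Of the 732 blocks, 275 began 100 or more bases after the listed start, outside those 50 bases. The guanine content of the peaks themselves was not analysed here. The first base was guanine in 53.2% of 186 promoters nearest to members with a fold of at least 10. The windows were compared as a description, with no test. The first set held only the listed starts nearest to a member, while the other sets could hold several listed starts of the same gene. How much this choice of starts adds to the differences was not tested.

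**Figure D5:**
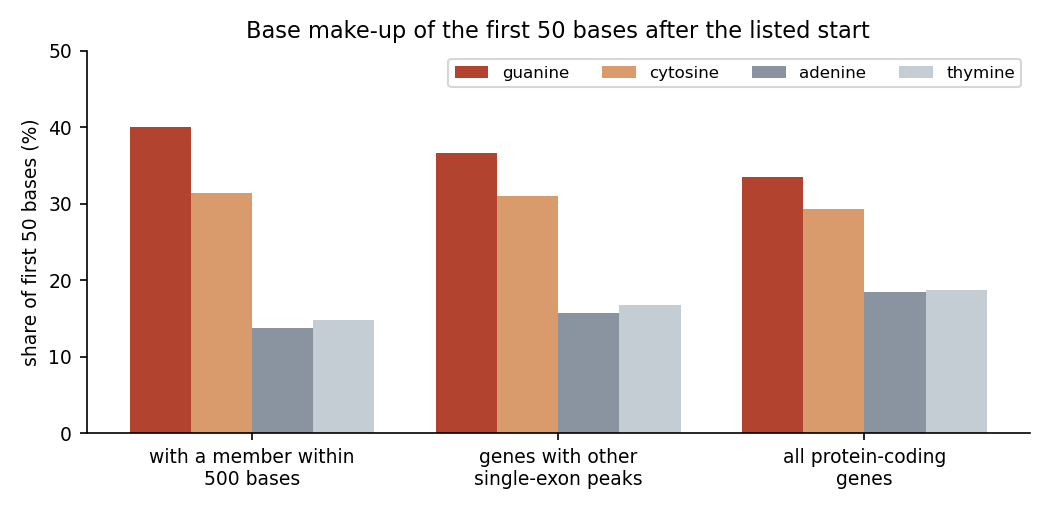
Share of each base in the first 50 bases after listed starts, for 692 promoters with a member within 500 bases, 2488 promoters of genes whose single-exon peaks lay elsewhere, and 22182 promoters of all protein-coding genes (left to right). Guanine was 40.1%, 36.6% and 33.5%. Only the first set was limited to the starts nearest to a member.

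Motifs were searched in the same windows on both strands and each promoter was counted once per motif. The GC box GGGCGG stood in 82.7% of the 692 promoters, against 72.4% of promoters of genes with peaks elsewhere and 56.3% of all listed promoters. The cAMP response element TGACGTCA stood in 6.79%, against 1.97% and 2.26%. The TATA box TATAAA stood in 3.18%, against 3.74% and 9.47%, the CCAAT box in 36.4%, against 32.6% and 34.7%, and the ETS core GGAAG in 76.4%, against 74.0% and 73.7%. In the sequences above, CCAAT lies inside the peak of PLK1 and, on the opposite strand, inside that of CYTH2. These matches are letters in a window and not measured sites, and the promoter sets differ in the choice of starts, as given above.

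The label of a 5′ end held for most members but not for all. For 187 members in 162 genes the promoter table had no entry, so the strand of the gene was not checked, and their median fold of 5.64 was close to that of the 903 on the gene's strand (5.85). In 38 members in 30 genes the peak ran on the strand opposite to the gene, so its place is the 3′ end of that gene's span. Their median fold was 4.035, and 1 of the 38 held a summit (2.63%). The highest of them were folds of 18.2 in the span of MTMR3, 10.6 in that of ZNF337 and 10.4 in that of ZNF839.

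Just inside the limit of 10% stood peaks in AKT2 (9.99%, fold 3.50), ZNF7 (9.95%, 5.33) and FUT4 (9.87%, 14.6), and just outside it peaks in RAP2B (10.1%, 8.32), MAP3K9 (10.1%, 8.43) and ZNF282 (10.1%, 5.44). Between 5% and 10% of the span lay 128 members, and 676 (59.9%) lay in the first 1%. The 5 midpoints nearest to the start were those of TSPAN17, PLK1, PLEKHB2, IDH1 and CCNDBP1, at 2.5 to 13 bases, with folds from 3.67 to 9.50. By chromosome, members made up between 15.2% of the positioned single-exon peaks (chromosome 19) and 36.4% (chromosome 13, 12 of 33).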

How the data were processed

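Both files are peak lists of the whole series without headers. STAR 2.7.1, MACS2 2.2.5 and GRCh38 are named in the submitters' processing notes, without roles. Which libraries entered each list, and whether they were pooled, is not stated there. Units were read from layout and values. The authors' MetDiff table holds a p-value per peak. Its log10 FDR and its ratio, the deposited fold (1.0 to 61.5), were used here, and the fold was read as precipitated over input from its place in the layout. The deposited summit list holds a −log10 value, taken as −log10 of q, of at least 1.35. Each value is the authors' own and describes peaks within its list.

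Positions are GRCh38, counted from 1. Gene spans and promoters came from RefSeq tables (GRCh38.p14) and were joined by position with Python 3.11.15 and pandas 2.3.3. Placement was tested on simulated peaks. Members and gene lists were chosen with earlier results of these data known. Named were TRMT5, NES, the 20 highest and 3 lowest folds, genes with 3 or more members, the 10 strongest summits, the 5 nearest midpoints, 3 peaks on each side of the limit, and up to 4 members per list. 1 of the 3 lowest is not reported here. The upstream, opposite-strand and both-end examples and the printed promoters were chosen after values were seen. The planned comparison of libraries was not made, since neither file holds a value per library.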

Additional observations from a re-analysis of the deposited data

How the results depend on the processing

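No paired analysis was possible because neither list holds a value per library; for the same reason no replicate was left out in turn. The median fold stayed higher in members than in other peaks under all 11 alternatives run for that difference (0.69 to 1.62, main value 1.42), and the share with a summit under all 13 run for it. Of these, the limits to the gene's strand and to narrow peaks were chosen after seeing the data. With 1 peak per gene, the highest, the median fold was 6.09 and the difference 0.69; members had 1.14 peaks per gene and the others 1.77. In spans of at least 20000 bases there were 744 members in 655 genes. Among peaks up to 110 bases wide there were 612 members in 571 genes, with a median fold of 5.245, a summit in 2.61% and a difference of 1.07 percentage points. With a summit within 150 bases of the block the share was 30.4% and the difference 10.1 points, and with summits of at least 10 in −log10 q they were 7.09% and 3.21 points. Intervals cover counting error only, and depth is unknown.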
